A study of Mus musculus with 39 samples.

Results

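The dystrophin glycoprotein complex was followed through 8 of its genes, taken as a named set of Dmd, Utrn, Dag1, Sgca, Sgcb, Sgcd, Sspn and Dtna and matched by symbol among the 29980 genes of the count table. All 8 were among the 13780 genes with enough reads to be tested. The cells were C2C12, a mouse myoblast line that stops dividing and fuses into myotubes when serum is reduced. FlncKO-C2C12 cells (KO below) carried a CRISPR/Cas9 modification aimed at the first exon of Flnc, the gene of filamin C, an actin crosslinker of the muscle Z-disc and membrane, and were compared with unmodified WT-C2C12 cells (WT below). The labels do not say whether the KO cells were 1 clone or several. RNA was taken from both lines in growth medium (day 0) and 1, 2, 4 and 6 days after the change to medium with 2% horse serum. Bulk RNA sequencing of 39 libraries gave 4 libraries per line and day, except 3 for KO at day 2. The labels do not say that libraries of 1 group came from separate cultures, so p-values measure the spread between these libraries, which may be technical.

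Library totals ran from 6838281 to 28902526 counts and were lowest on average at day 6 in both lines. Flnc itself averaged 29.4 CPM (a library's counts scaled to a common total) in KO and 672 CPM in WT at day 0, and 118 CPM in KO against 1639 CPM in WT at day 6, with no overlap between the lines on any day. The 9 markers of differentiated muscle that were read (Myog, Myh3, Ckm, Acta1, Actc1, Tnnt3, Tnni1, Mymk and Mymx) all had reads in every group, and their summed level reached 3286 to 7040 CPM in KO and 18450 to 23740 CPM in WT at day 6. Of 2 endothelial markers the summed level stayed at or below 0.503 CPM in every library, and of the 2 epithelial markers Epcam was at 0 in every library. The other, Cdh1, reached at most 1.47 CPM in KO and 5.28 CPM in WT, and averaged 0.504 CPM in KO and 3.53 CPM in WT at day 6. Other lists had more reads. Summed bone or cartilage markers reached 61.2 CPM (WT day 0), fat markers 38.9 CPM (KO day 0) and leukocyte markers 21.1 CPM (KO day 2) in single libraries. Among the KO libraries of day 1, replicate 3 was unlike the rest, with a mean r of 0.929 to its group in log2 CPM, beside 0.954 to 0.963. So was replicate 4 among the WT libraries of day 0, at 0.955 beside 0.973 to 0.976. KO day 4 replicate 3, at 0.954, was left out only singly. KO day 1 replicate 3 and WT day 0 replicate 4 are the 2 outlying libraries below. Several results that rest on them are given with and without them. In bulk RNA, fewer cells of a type and less RNA per cell cannot be told apart.

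The complex links the actin cytoskeleton of a muscle fibre to laminin outside the cell. Dystrophin (Dmd) binds actin inside the membrane, and utrophin (Utrn) is its relative, which takes the same place in immature muscle and at the neuromuscular junction. Dag1 encodes both the alpha and the beta subunit of dystroglycan, the laminin receptor of the complex, while the sarcoglycans (Sgca, Sgcb, Sgcd) and the tetraspanin-like sarcospan (Sspn) form a subcomplex that steadies it in the membrane. Alpha-dystrobrevin (Dtna) binds dystrophin and the syntrophins and carries signalling proteins. Loss of DMD, SGCA, SGCB or SGCD causes muscular dystrophy in people.

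In GRCm38 coordinates, Dmd spans chrX:82948870-85206141 on the forward strand, Utrn chr10:12382188-12869365 on the reverse strand, Dag1 chr9:108204634-108263958 on the reverse strand and Sgca chr11:94962791-94976327 on the reverse strand. Sgcb spans chr5:73632749-73647790 and Sgcd chr11:46896253-47988969, both on the reverse strand, and Sspn spans chr6:145931641-145965223 on the forward strand. Counts were per gene, so the full-length and the short products of Dmd, which has 14 annotated transcripts, were added together.

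RefSeq windows (GRCm38.p6) of the 250 bases before an annotated start were found for 7 of the 8 genes, 10 windows in all. Of these, 3 are shown because their start coincides with the 5′ end of the annotated gene and because they belong to genes the results turn on: Sgca, the gene with the largest called difference between the lines in the first days, Dmd, the gene that rose most, and Dag1, the gene with the highest level per length. Capitals mark E-boxes (CANNTG, the site class of MyoD-type factors), the GC box GGGCGG on either strand (the site of SP1) and the CArG box (the site of serum response factor). Sgca is the reverse strand of chr11:94976328-94976577, Dmd the forward strand of chrX:82948620-82948869, and Dag1 the reverse strand of chr9:108263959-108264208.
Sgca: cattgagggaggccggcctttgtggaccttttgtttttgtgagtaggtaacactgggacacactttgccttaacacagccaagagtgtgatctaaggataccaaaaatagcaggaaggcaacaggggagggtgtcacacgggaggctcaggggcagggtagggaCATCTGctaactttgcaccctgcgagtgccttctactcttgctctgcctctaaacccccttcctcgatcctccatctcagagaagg
Dmd: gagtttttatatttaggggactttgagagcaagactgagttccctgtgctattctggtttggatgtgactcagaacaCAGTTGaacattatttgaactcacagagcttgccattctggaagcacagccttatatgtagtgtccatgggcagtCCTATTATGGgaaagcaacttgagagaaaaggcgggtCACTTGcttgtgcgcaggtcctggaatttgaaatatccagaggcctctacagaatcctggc
Dag1: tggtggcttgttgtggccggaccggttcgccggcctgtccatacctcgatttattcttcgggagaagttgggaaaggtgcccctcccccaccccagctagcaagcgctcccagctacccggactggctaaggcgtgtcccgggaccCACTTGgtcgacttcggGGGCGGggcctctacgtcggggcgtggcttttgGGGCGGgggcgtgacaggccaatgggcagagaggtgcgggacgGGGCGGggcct
The Sgca window held 1 E-box and no GC box, the Dmd window 2 E-boxes and 1 CArG box, and the Dag1 window 1 E-box and 3 GC boxes. Over the 32851 RefSeq windows of the same length, 66.2% held an E-box, 32.7% a GC box and 1.47% a CArG box. G and C made up 45.2% of the Dmd window, 52.8% of the Sgca window and 67.6% of the Dag1 window. The matches did not overlap each other, and they describe letters only.

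Levels of different genes were set side by side as CPM divided by the length of the annotated exons in kilobases (RPKM). Dag1 was highest and Dmd lowest in each of the 10 groups. At day 6, Dag1 averaged 126 ± 18.9 RPKM in KO and 163 ± 28.1 RPKM in WT (SD, n = 4 each), while Dmd averaged 0.111 ± 0.0568 RPKM in KO and 0.527 ± 0.211 RPKM in WT. Between them at day 6 stood Sgca, Sgcb, Sspn, Utrn, Dtna and Sgcd in KO, and Sgca, Sgcb, Utrn, Sspn, Dtna and Sgcd in WT. Neighbours in these orders whose libraries overlapped at day 6 were Sgca and Sgcb in both lines, and Utrn with Sspn and Dtna with Sgcd in WT.

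**Figure D1:**
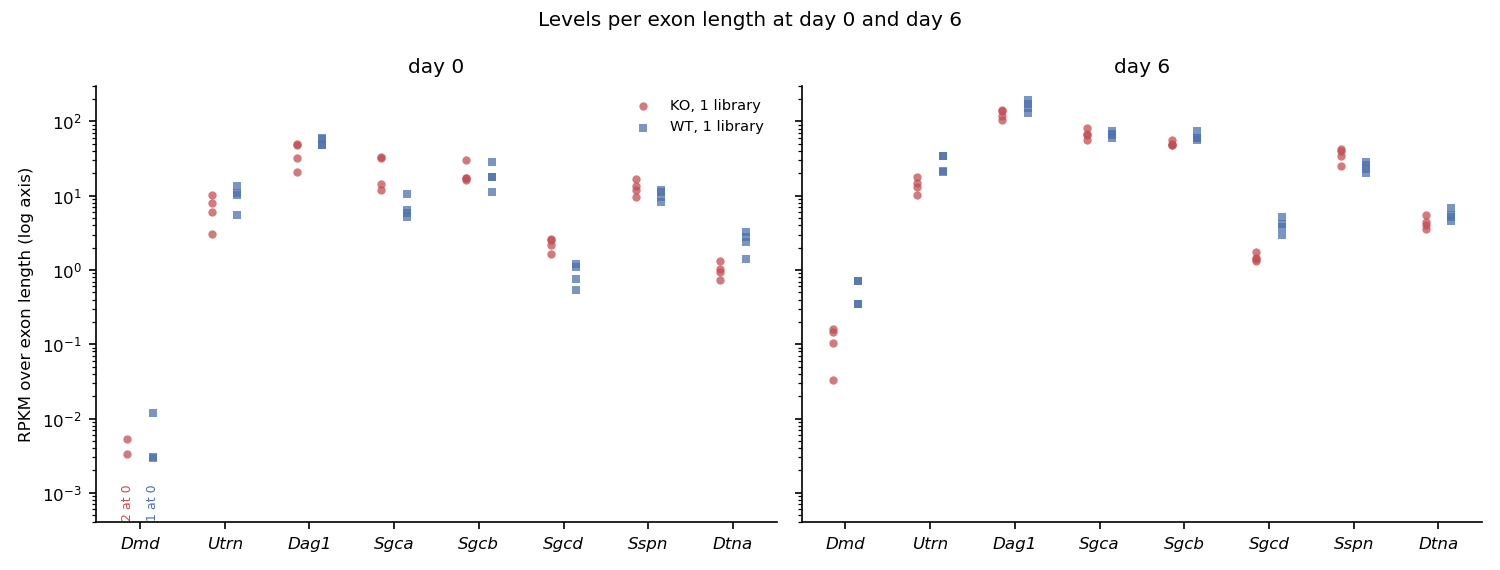
Levels of the 8 genes per exon length (RPKM, log axis) at day 0 (left) and day 6 (right); each circle is a KO library and each square a WT library, and libraries with no Dmd read are counted at the foot of the panel. Dag1 stood at the top and Dmd at the foot on both days, while at day 0 all KO libraries lay above the WT libraries for Sgca and Sgcd and only Sgcd, Dmd and Utrn lay wholly lower in KO at day 6.

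By group mean, the place of Sgca in this order differed between the lines before differentiation. At day 0 Sgca overlapped Dag1, Sgcb and Sspn in KO, and Utrn and Sspn in WT, over the libraries. It held rank 2 of 8 in all 5 KO groups, with 22.9 ± 11.2 RPKM at day 0, whereas in WT it held rank 5 at days 0 and 1, with 6.99 ± 2.41 RPKM at day 0, rank 3 at day 2 and rank 2 at days 4 and 6. The ratio of Sgca to Sgcb per length was 1.12 ± 0.498 in KO and 0.448 ± 0.328 in WT at day 0, and 1.35 ± 0.272 in KO and 1.07 ± 0.142 in WT at day 6. The mean ratio of Sgcd to Sgcb was higher in KO at day 0 and lower in KO at day 6, at 0.120 ± 0.0457 in KO and 0.0493 ± 0.0136 in WT at day 0, and at 0.0294 ± 0.00445 in KO and 0.0637 ± 0.0105 in WT at day 6. At day 0 the libraries of the lines overlapped for both ratios, and at day 6 for Sgca to Sgcb only. Dmd stood at 0.00818 ± 0.00432 of the Utrn level per length in KO and at 0.0184 ± 0.00268 in WT at day 6. With the longest annotated transcript as the length, Dtna averaged 11.9 RPKM in KO and 14.8 RPKM in WT at day 6, Sgcd 2.75 RPKM in KO and 7.44 RPKM in WT, and Dmd 0.176 RPKM in KO and 0.841 RPKM in WT.

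Most genes of the complex rose during differentiation in both lines, and the exception was Sgcd in KO. In KO, 7 of the 8 genes were called higher at day 6 than at day 0, where 43.6% of all genes tested were called in either direction and 20.5% were called higher (called means a Benjamini-Hochberg adjusted p under 0.05 in edgeR's quasi-likelihood test). In WT, all 8 were called higher at day 6, where 49.4% of all genes were called and 21.7% higher. The log2 differences of day 6 minus day 0, with their SE, were 2.13 ± 0.21 in KO and 1.16 ± 0.29 in WT for Dtna, 1.73 ± 0.32 in KO and 1.60 ± 0.15 in WT for Dag1, and 1.57 ± 0.40 in KO and 3.26 ± 0.23 in WT for Sgca. They were 1.46 ± 0.24 in KO and 1.24 ± 0.16 in WT for Sspn, 1.30 ± 0.22 in KO and 1.75 ± 0.28 in WT for Sgcb, and 1.05 ± 0.41 in KO and 1.47 ± 0.34 in WT for Utrn. Sgcd differed by -0.60 ± 0.17 in KO (adjusted p = 0.0921, and 0.0395 in a fit of the 2 groups alone) and by 2.16 ± 0.31 in WT. The median over the 8 genes was 1.51 in KO and 1.68 in WT, beside -0.05 in KO and -0.08 in WT over all genes tested. The Utrn call in KO was lost on leaving out KO day 0 replicate 1, 3 or 5 or KO day 6 replicate 1, 3 or 4, with adjusted p up to 0.15.

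Dmd was almost unread at day 0 and had a low but clear level at day 6. Its reads summed to 95 in the 4 KO libraries of day 6 and to 5 in those of day 0, a ratio of 44.1 after scaling for depth (exact 95% interval 18.3 to 139), and to 546 in WT at day 6 and 12 in WT at day 0, a ratio of 107 (60.7 to 208). These intervals cover counting error only, with each count taken as a separate read, and they overlap. If both mates of a pair were counted, the intervals are too narrow.

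Calls began on different days. At day 1, Dtna, Dag1, Sspn and Sgcb were called higher than at day 0 in KO, where 7.99% of all genes were called (13.5% with the replicate block), and Dtna alone in WT, where 4.19% were called (7.76% with the block). At day 2, Dag1, Dtna, Sgca, Sgcb, Sspn and Utrn were called in KO (26.6% of all genes called) and Dag1, Dtna, Sgca and Sgcb in WT (25.6%). At day 4, in KO 6 were higher and Sgcd was lower (37.5% of all genes called, 17.9% higher and 19.6% lower), and in WT all 8 were higher (43.7% called, 19.5% higher). Several day 1 calls rested on single libraries. In KO, that of Dag1 was lost without KO day 0 replicate 3 or 5 or KO day 1 replicate 1 or 5 (adjusted p up to 0.144), and those of Sgcb (up to 0.183) and Sspn (up to 0.199) without KO day 0 replicate 3, 4 or 5 or KO day 1 replicate 1, 4 or 5. In WT, that of Dtna was lost without WT day 0 replicate 3, 4 or 5 or WT day 1 replicate 1 or 5 (up to 0.177). Some day 1 differences were not called in the fit of all libraries but were under an alternative. Sgca in KO (0.88, adjusted p = 0.0603) was called without KO day 0 replicate 1 (0.0197) or 4 (0.0347). It was also called with the replicate block (0.91, 0.0285) and with DESeq2 (0.89, 0.032). Sgca in WT (0.84, adjusted p = 0.106) was called without WT day 0 replicate 4 (0.0413), and Utrn in KO (1.11, adjusted p = 0.107) without KO day 1 replicate 3 (1.45, 0.00785). Without the 2 outlying libraries, Sgca was called in KO (0.0363) and WT (0.0363) and Utrn in KO (0.00499). At day 4, the Utrn difference in KO (0.92, adjusted p = 0.0913) was called without KO day 4 replicate 3 (0.0363). At day 2, the Utrn call in KO was lost without KO day 0 replicate 3 or 5 or any of the 3 KO day 2 libraries (up to 0.157), and the Dag1 call in WT without WT day 2 replicate 1 (0.0594).

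**Figure D2:**
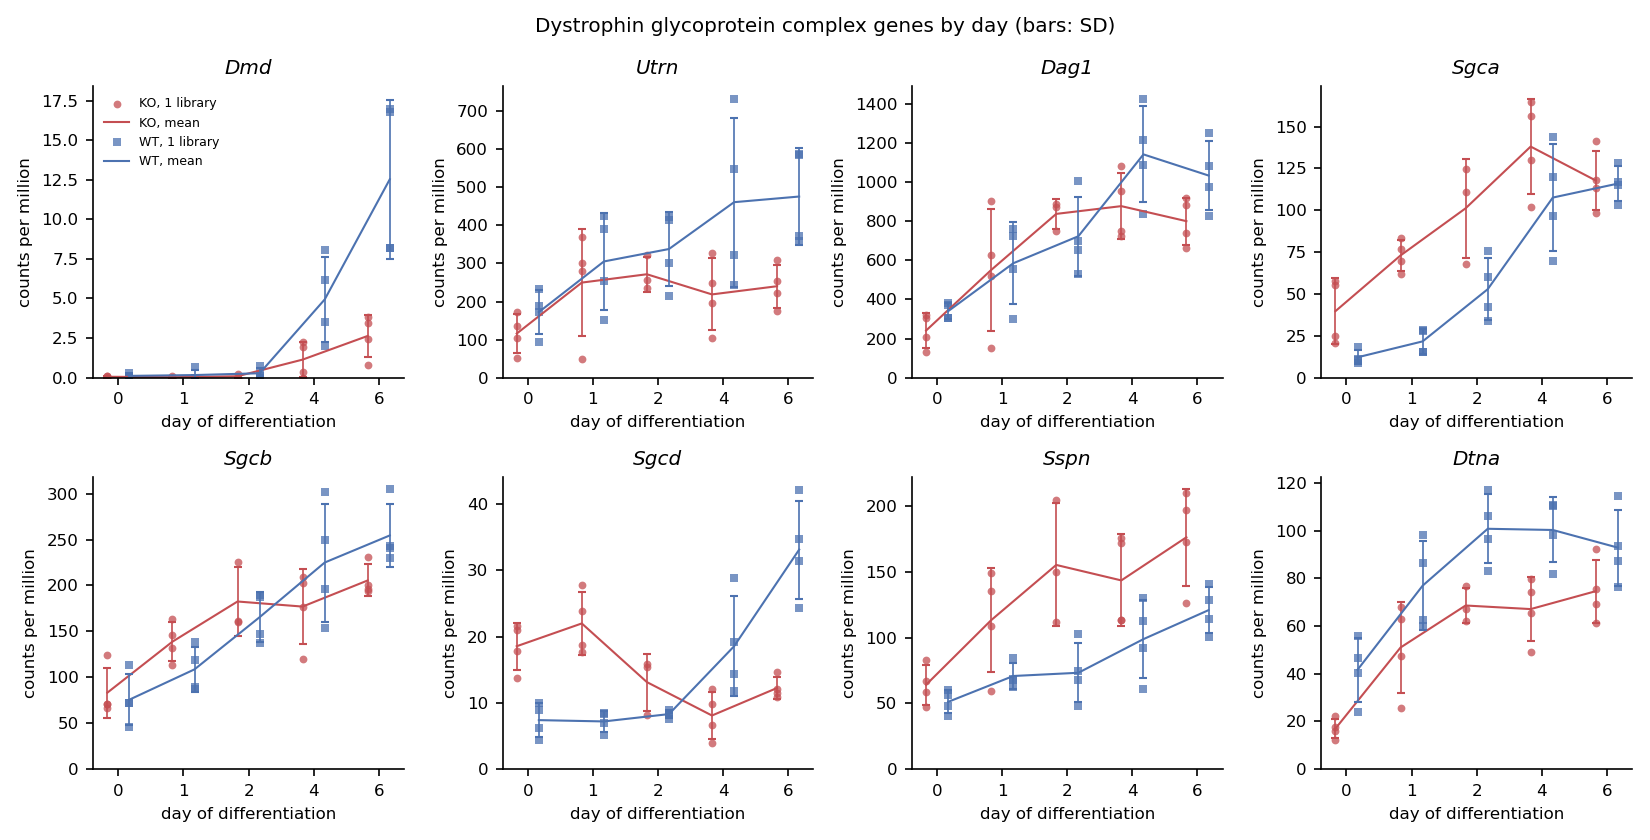
CPM of each gene on each day, with days spaced evenly; circles are KO libraries and squares WT libraries, lines join the group means and bars are the SD, cut at 0. Sgca and Sgcd start higher in KO, Sgcd ends at 10.8 to 14.6 CPM in KO and 24.3 to 42.1 CPM in WT, and Dmd leaves the baseline from day 4.

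The direct comparison of KO with WT on each day asks which of these genes differ between the lines. An effect of the Flnc modification cannot be told apart from other differences between the lines. Sgca and Sgcd, which encode alpha- and delta-sarcoglycan, were higher in KO at days 0 and 1, by 2.50 to 3.37 times. Dtna was lower in KO at day 0, Sgca and Sspn were higher at day 2, and Sgcd was lower in KO at days 4 and 6. The count of genes called was 3 of 8 at day 0 (15.5% of all genes called), 2 of 8 at day 1 (18.0%), 2 of 8 at day 2 (17.9%), 1 of 8 at day 4 (27.5%) and 1 of 8 at day 6 (28.9%). With the replicate number as a block within day 4, where same-numbered libraries deviated together, the count was 6 of 8, beside 43.2% of all genes called in that fit, so the count at day 4 depends on the block. Libraries of the lines did not overlap for Sgca, Sgcd and Dtna at day 0 (3 of 8, where 17.1% of all genes did not overlap), for Sgca and Sgcd at day 1 (2 of 8, 18.7%), for Sspn and Dtna at day 2 (2 of 8, 26.9%), for Dtna at day 4 (1 of 8, 26.3%) and for Dmd, Utrn and Sgcd at day 6 (3 of 8, 33.6%). The median log2 difference over the 8 genes was -0.18, 0.13, 0.18, -0.48 and -0.34 at days 0, 1, 2, 4 and 6, beside medians of all genes between -0.04 and 0.02. No exact permutation test over the libraries of a day passed after adjustment over the 40 tests of 8 genes on 5 days, where the lowest adjusted p was 0.127. The design allows no unadjusted p below 0.0286.

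**Figure D3:**
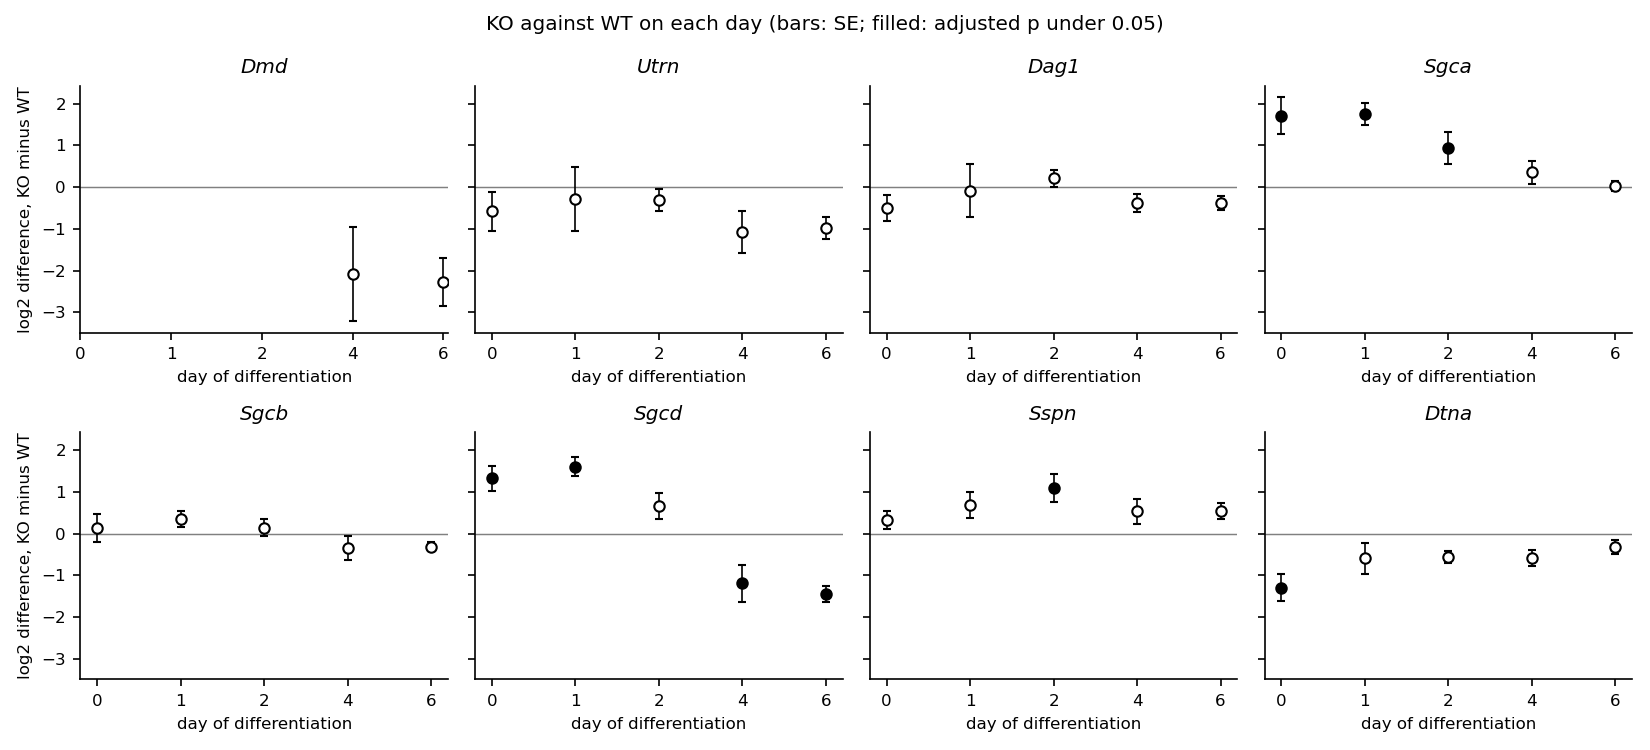
Log2 difference of KO minus WT for each gene on each day, with its SE; filled points were called at an adjusted p under 0.05. Dmd is drawn for days 4 and 6 only, since earlier days held too few reads. Sgcd crosses from 1.32 at day 0 to -1.44 at day 6, and Sgca approaches 0.

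Sgca encodes the sarcoglycan made mainly in striated muscle. At day 0 it had 57.5, 24.8, 55.5 and 20.9 CPM in KO (replicates 1, 3, 4 and 5), against 10.3, 8.86, 18.2 and 11.1 CPM in WT. Every KO library lay above every WT library, although the KO libraries fell into a higher and a lower pair. The log2 difference was 1.71 ± 0.44 (SE), a 3.28-fold higher level in KO (edgeR adjusted p = 0.000115). At day 1 it had 83.3, 76.9, 69.6 and 62.0 CPM in KO, against 27.7, 15.1, 15.5 and 28.2 CPM in WT, a log2 difference of 1.75 ± 0.27 (adjusted p = 6.34e-05). The lines were again apart, and KO at day 1 was above the WT level of day 2 on average, at 73.0 CPM in KO at day 1 and 52.8 CPM in WT at day 2. At day 2 the difference was 0.94 ± 0.37 (adjusted p = 0.0345) with overlapping libraries. That call was lost without KO day 2 replicate 1 (adjusted p = 0.172) or 3 (0.113) and without WT day 2 replicate 4 (0.113) or 5 (0.0958), and in a fit of these 2 groups alone (0.0576).

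At days 4 and 6 no difference in Sgca was detected between the lines. At day 4 the log2 difference was 0.36 ± 0.27 (adjusted p = 0.402). It averaged 118 ± 17.8 CPM in KO and 116 ± 10.2 CPM in WT at day 6 (SD, n = 4 each), a log2 difference of 0.02 ± 0.13 (adjusted p = 0.968). The change of the KO minus WT difference since day 0 was -1.69 ± 0.46 at day 6 (adjusted p = 0.00699 for genotype by day, a test that called 9.95% of all genes). At day 4 that change was -1.35 ± 0.52 (adjusted p = 0.0401, with 7.66% of all genes called). The day 4 change was lost on leaving out any of WT day 0 replicate 1, 3 or 5, WT day 4 replicate 1 or 3, KO day 0 replicate 1 or 4, or KO day 4 replicate 1, 4 or 5 (adjusted p 0.052 to 0.106), and in a fit of the 4 groups concerned alone (0.0957).

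Sgcd encodes delta-sarcoglycan, which pairs with beta-sarcoglycan as the core of the subcomplex, and it was the only gene of the 8 called in opposite directions on different days. At day 0 it had 13.8, 20.9, 17.9 and 21.6 CPM in KO (replicates 1, 3, 4 and 5), against 8.93, 10.0, 4.42 and 6.17 CPM in WT. The lines did not overlap, and the log2 difference was 1.32 ± 0.30 (adjusted p = 0.00153). At day 1 it had 17.6, 27.8, 23.8 and 18.7 CPM in KO, against 8.45, 8.31, 6.89 and 5.11 CPM in WT, a log2 difference of 1.61 ± 0.23 (adjusted p = 0.000138). At day 2 the libraries overlapped, with 8.17, 15.8 and 15.4 CPM in KO (replicates 1, 3 and 5) and 8.99, 7.62, 8.34 and 8.24 CPM in WT, and the difference of 0.66 ± 0.31 was not called (adjusted p = 0.147).

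From day 4 the order of the lines was reversed for Sgcd. At day 4 it had 12.1, 3.92, 9.77 and 6.59 CPM in KO, against 28.8, 11.8, 14.3 and 19.2 CPM in WT. KO replicate 1 lay above WT replicate 3, and the other KO libraries lay below all WT libraries, for a log2 difference of -1.19 ± 0.45 (adjusted p = 0.0022). At day 6 it had 14.6, 12.1, 10.8 and 11.5 CPM in KO, against 42.1, 31.4, 34.7 and 24.3 CPM in WT, without overlap. The difference of -1.44 ± 0.19 (adjusted p = 0.0003) was a 2.71-fold lower level in KO. Both late differences were called under each alternative tried, as were the differences at days 0 and 1.

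Seen along time, Sgcd in KO was lower at day 4 than at day 0, by -1.19 ± 0.38 on the log2 scale (adjusted p = 0.00169), and in WT it was higher at day 4 by 1.33 ± 0.38 (adjusted p = 0.000379). The change of the KO minus WT difference since day 0 was -2.52 ± 0.54 at day 4 (adjusted p = 0.000134) and -2.76 ± 0.36 at day 6 (adjusted p = 2.71e-05). The joint test of the 4 later days called Sgcd (adjusted p = 1.13e-06) and Sgca (0.0082) and none of the other 6 genes, where 7.74% of all genes were called. At days 1 and 2, genotype by day called none of the 8 genes. Over the whole table it called 0 genes (0.0%) at day 1, 341 before adjustment at the same threshold of 0.05 and 1 with DESeq2, and 0.544% of all genes at day 2.

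Summed markers of differentiated muscle moved in another order. They averaged 102 CPM in KO and 357 CPM in WT at day 0, 148 CPM in KO and 1187 CPM in WT at day 1, and 5452 CPM in KO and 20790 CPM in WT at day 6. Thus at day 1 Sgca and Sgcd were higher in KO while the marker sum lay at 43.9 to 205 CPM in KO and 411 to 2991 CPM in WT. The 4 fibroblast or connective tissue markers (Pdgfra, Dcn, Lum and Postn) summed to 83.9 to 205 CPM in KO and 26.3 to 49.3 CPM in WT at day 0, and to 185 to 399 CPM in KO and 118 to 589 CPM in WT at day 6, with Lum at 0 in both lines at day 0. The part of either marker list in the sarcoglycan values was not tested.

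Of the other members of the sarcoglycan and sarcospan subcomplex, Sgcb was not called on any day and Sspn was called at day 2 only. Sgcb, beta-sarcoglycan, averaged 83.2 ± 27.1 CPM in KO and 75.6 ± 28.1 CPM in WT at day 0, and 205 ± 17.4 CPM in KO and 254 ± 33.9 CPM in WT at day 6. Its log2 differences of KO minus WT lay between -0.35 and 0.35 on the 5 days (adjusted p 0.303 or higher). Sspn had 112, 150 and 205 CPM in KO (replicates 1, 3 and 5) at day 2, against 75.04, 67.6, 48.2 and 102.5 CPM in WT (replicates 1, 3, 4 and 5). All 3 KO libraries lay above the WT libraries, and the log2 difference was 1.08 ± 0.34 (adjusted p = 0.00502), a call lost without KO day 2 replicate 5 (0.0753). On the other days Sspn differed by 0.33 to 0.68 in favour of KO and was not called, though at day 6 it was in a fit of the 2 groups alone (0.034). At day 1 the difference of 0.68 ± 0.31 (adjusted p = 0.0652) was called with DESeq2 (0.0428), and became 0.90 (0.0107) without KO day 1 replicate 3, which had 59.4 CPM where the other KO libraries had 109 to 149 CPM. Sspn overlaps the exons of an antisense gene by 69 bases, and strand use in the counting is not given in the sources used here.

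Dmd and Utrn had lower means in KO late in the course. Neither passed the threshold in the fit of all libraries, but both did under several alternatives. At day 6 neither was called with no filter or with any single library left out. DESeq2 did not call Dmd there, and neither its size factors nor halved counts called Utrn. At day 6 Dmd had 3.47, 3.81, 0.797 and 2.45 CPM in KO (replicates 1, 3, 4 and 5, 25, 28, 12 and 30 counts), against 17.0, 16.8, 8.18 and 8.21 CPM in WT (135, 214, 129 and 68 counts). Every KO library lay below every WT library, and the WT libraries formed a higher and a lower pair. The log2 difference was -2.28 ± 0.57 (adjusted p = 0.0511), and it was called with DESeq2's size factors in place of TMM (0.0461), with halved counts (0.0127), without the 2 outlying libraries (0.0381) and in a fit of the 2 groups alone (0.00116). The 2 outlying libraries belong to days 0 and 1. Leaving them out reaches day 6 only through the filter, scaling and spread shared by all groups. At day 6, 33.2% of all genes were then called, beside 28.9%. At day 4 Dmd had 30, 0, 8 and 36 counts in KO and 134, 38, 38 and 107 counts in WT. The difference of -2.09 ± 1.13 was not called (adjusted p = 0.0792), and it was called with the replicate number as a block within the day (-2.41, adjusted p = 0.00652) and with halved counts (0.029). Earlier days held between 2 and 22 Dmd counts per group, and no difference was detectable at that depth.

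Utrn had 310, 222, 255 and 175 CPM in KO at day 6 (replicates 1, 3, 4 and 5), against 587, 585, 372 and 360 CPM in WT. The lines did not overlap, and the log2 difference was -0.99 ± 0.26 (adjusted p = 0.0852). It was called with DESeq2 (0.0499), in a fit of the 2 groups alone (0.00282) and without the 2 outlying libraries, which belong to other days (-1.02, 0.0212). At day 4 it had 328, 103, 249 and 195 CPM in KO, against 732, 242, 322 and 548 CPM in WT, a difference of -1.08 ± 0.51 (adjusted p = 0.0614) with overlapping libraries. Within replicate numbers the day 4 difference was -1.07 and was called (adjusted p = 0.000538). It was also called without KO day 4 replicate 1 (0.0315) or WT day 4 replicate 3 (0.032), with DESeq2 (0.0333) and without the 2 outlying libraries (0.0138). Genotype by day called neither Dmd nor Utrn on any day (adjusted p 0.692 or higher), so a change of their difference along the course was not shown.

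Dmd and Utrn have the longest transcripts of the 8 genes, at 14910 and 12382 bases. Over the other 333 genes tested with a transcript of at least 10000 bases, a minimum chosen after the values were seen, the median log2 difference of KO minus WT was 0.13 at day 4 and 0.18 at day 6, beside 0.01 and 0.02 over all genes on those days. At day 0 that median was -0.47, beside -0.01 over all genes. The mitochondrial share of counts lay at 4.06 to 5.97% in KO and 2.89 to 3.47% in WT at day 6. Its part in the Dmd and Utrn values was not tested.

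Dag1, whose product binds both laminin and dystrophin, was not called between the lines on any day. It averaged 241 ± 88.7 CPM in KO and 340 ± 42.0 CPM in WT at day 0, and 801 ± 120 CPM in KO and 1035 ± 179 CPM in WT at day 6. The log2 differences lay between -0.50 and 0.21. At day 1, KO replicate 3 had 152 CPM where the other 3 KO libraries had 522 to 904 CPM.

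Dtna, alpha-dystrobrevin, was lower in KO in growing cells. At day 0 it had 22.2, 12.3, 17.5 and 16.0 CPM in KO (replicates 1, 3, 4 and 5), against 55.7, 40.3, 23.8 and 46.7 CPM in WT, with no overlap. The log2 difference was -1.29 ± 0.32 (adjusted p = 0.000326), and without WT day 0 replicate 4, its lowest WT library, it was still called. At day 1 the difference of -0.59 ± 0.36 was not called (adjusted p = 0.0911), but was without KO day 1 replicate 1 (-0.76, 0.0378) and with the replicate block over all libraries (-0.61, 0.0492). By day 6 it averaged 74.6 ± 13.3 CPM in KO and 92.8 ± 15.9 CPM in WT, and the difference of -0.32 ± 0.17 was not called (adjusted p = 0.363). The libraries did not overlap at days 2 and 4 either, with 61.9 to 76.7 CPM in KO and 83.2 to 117 CPM in WT at day 2. Those differences, -0.55 ± 0.14 (adjusted p = 0.156) and -0.58 ± 0.19 (0.0761), were called with the replicate block within the day (0.0181 and 0.00226) and without the 2 outlying libraries (0.0386 and 0.0123). Those 2 libraries belong to days 0 and 1, not to the days compared. Dtna overlaps the exons of an antisense gene by 90 bases, with the same limit on strand as for Sspn. The change of the difference since day 0 was 0.98 ± 0.36 at day 6 (adjusted p = 0.0668). It was called without WT day 0 replicate 4 (1.15, adjusted p = 0.0201) and without KO day 0 replicate 1 (1.13, 0.0379), and with the 2 outlying libraries left out it was 1.14 (0.00414).

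The block within day 4, which called 43.2% of all genes, called 6 genes of the complex. Beside Dmd, Utrn, Sgcd and Dtna these were Sgcb, with a log2 difference of -0.34 (adjusted p = 0.0397), and Sspn, with 0.56 (0.0363).

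Partners of the complex outside the 8 genes split in both directions. Of 13 such genes, 10 had enough reads to be tested, and Sgcz, Sntg1 and Sntg2 did not. At day 6, 3 were higher and 4 lower in KO (7 of 10, where 28.9% of all genes were called), with a median log2 difference of -0.70 beside 0.02 over all genes. At day 0, 2 were higher and 3 lower (5 of 10, beside 15.5%), with a median of 0.42. The caveola genes of muscle were among the lower ones at day 6: Cavin4 averaged 234 ± 33.6 CPM in KO and 766 ± 81.2 CPM in WT (log2 difference -1.71 ± 0.13, adjusted p = 1.92e-07). Cav3, caveolin-3, averaged 16.9 ± 11.8 CPM in KO and 122 ± 32.9 CPM in WT (-2.84 ± 0.59, adjusted p = 0.000949). At day 0 Cavin4 was instead higher in KO, with 129 ± 13.1 CPM in KO and 60.6 ± 15.2 CPM in WT (1.08 ± 0.20, adjusted p = 0.000404). Cav3 was already lower in KO at day 0, at 0.064 CPM in KO and 1.09 CPM in WT (-3.97 ± 0.95, adjusted p = 0.00822).

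The beta-syntrophins, adaptors that bind dystrophin, utrophin and the dystrobrevins, were called in opposite directions at day 6. Sntb2 was higher in KO, at 56.0 ± 10.8 CPM in KO and 21.4 ± 3.13 CPM in WT (log2 difference 1.39 ± 0.18, adjusted p = 0.00038). Sntb1 was lower, at 8.93 ± 4.46 CPM in KO and 62.1 ± 16.0 CPM in WT (-2.80 ± 0.47, adjusted p = 0.00157). Dtnb, beta-dystrobrevin, was higher in KO, at 7.68 ± 1.99 CPM in KO and 1.99 ± 0.904 CPM in WT (1.94 ± 0.39, adjusted p = 2.47e-06), where Dtna was not called. Sgce, epsilon-sarcoglycan, was higher in KO (0.49 ± 0.16, adjusted p = 0.0177). At day 0 Sntb1 was lower in KO as well (-2.49 ± 0.66, adjusted p = 0.0154), while Sntb2 (0.158), Dtnb (0.0831) and Sgce (0.425) were not called. Sntb1 and Sgce were named after their values were seen.

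**Figure D4:**
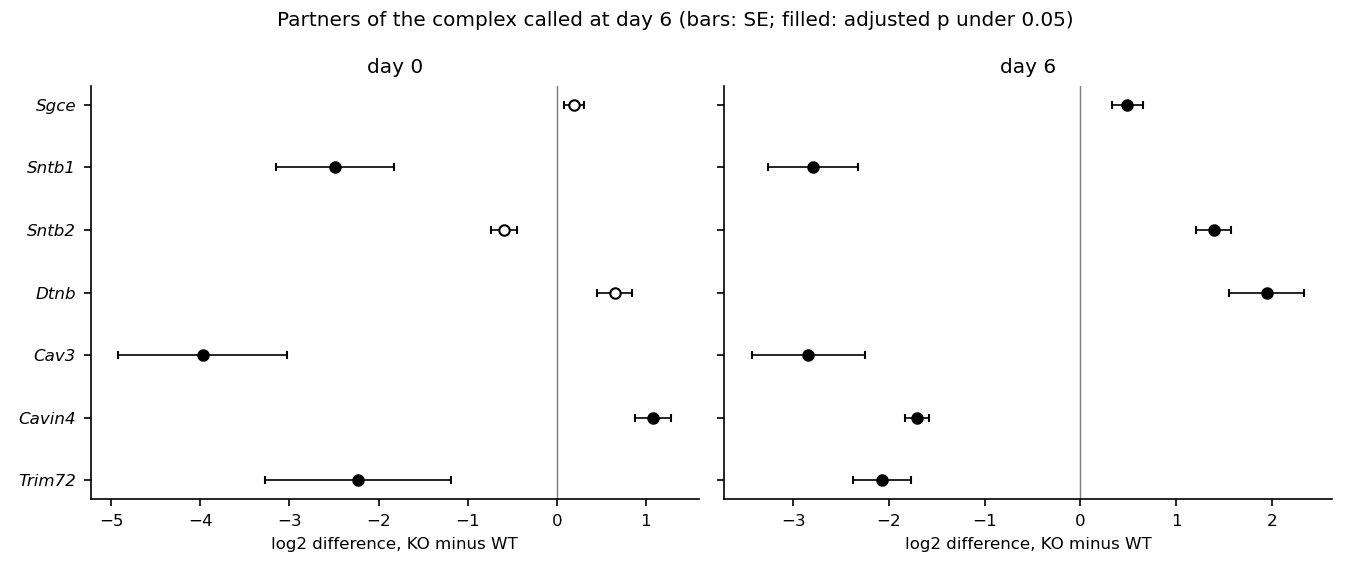
Log2 difference of KO minus WT, with its SE, for the 7 partners of the complex called at day 6, at day 0 (left) and day 6 (right), on separate axes; filled points were called at an adjusted p under 0.05. Cavin4 lies at 1.08 at day 0 and at -1.71 at day 6, and Sntb1 and Sntb2 lie on opposite sides of 0 at day 6.

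Of the enzymes that build the laminin-binding sugar of dystroglycan, all 17 were tested and 1 was called between the lines at day 6, where 28.9% of all genes were called. It was B4gat1, an enzyme that primes the sugar chain, at 50.3 ± 3.29 CPM in KO and 79.8 ± 9.79 CPM in WT (log2 difference -0.67 ± 0.10, adjusted p = 0.00325). The list's median was -0.08 at day 6. On the earlier days 2 of 17 were called at days 0, 1 and 4 and 1 of 17 at day 2, which is 11.8% or 5.88% of the list, beside 15.5%, 18.0%, 17.9% and 27.5% of all genes at days 0, 1, 2 and 4.

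Among 15 matrix ligands and laminin receptors, 3 were higher and 5 lower in KO at day 6 (8 of 15, beside 28.9% of all genes), with a median of -0.27. Itga7 and Itga6, subunits of the other laminin receptors of muscle cells, were lower: Itga7 averaged 498 ± 73.6 CPM in KO and 1675 ± 184 CPM in WT (-1.75 ± 0.14, adjusted p = 2.42e-06), and Itga6 averaged 45.1 ± 10.8 CPM in KO and 399 ± 122 CPM in WT (-3.15 ± 0.28, adjusted p = 1.13e-07). Lama4, a laminin chain, averaged 66.7 ± 30.8 CPM in KO and 0.387 ± 0.394 CPM in WT (7.26 ± 0.80, adjusted p = 2.18e-07). Col6a1, a collagen VI chain, averaged 546.5 ± 146 CPM in KO and 2.26 ± 1.99 CPM in WT (7.86 ± 0.87, adjusted p = 1.55e-08). Lama4 was already higher in KO at day 0, at 64.6 ± 18.7 CPM in KO and 2.78 ± 3.13 CPM in WT (4.57 ± 0.76, adjusted p = 3.33e-05).

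Among 16 genes that link the complex to the cytoskeleton, 14 were tested, and 4 were higher and 1 lower in KO at day 6, with a median of -0.21. These 5 of 14, 35.7% of the list, lie near the 28.9% of all genes called. Synm, an intermediate filament protein known to bind dystrophin and dystrobrevin, averaged 38.0 ± 13.6 CPM in KO and 2.27 ± 0.965 CPM in WT (4.08 ± 0.45, adjusted p = 4.25e-06). The cytoplasmic actins were higher in KO, Actb at 1478 ± 118 CPM in KO and 685 ± 45.0 CPM in WT (1.11 ± 0.07, adjusted p = 0.000158) and Actg1 at 571 ± 89.5 CPM in KO and 178 ± 44.1 CPM in WT (1.68 ± 0.21, adjusted p = 1.96e-05). Krt19, a keratin known to bind dystrophin, averaged 1.12 ± 0.702 CPM in KO and 16.8 ± 4.70 CPM in WT (-3.85 ± 0.57, adjusted p = 5.79e-05).

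The 8 genes did not share one pattern over the 39 libraries. As a description over libraries that share the time course, depth and line, Pearson's r between log2 CPM values was 0.837 for Dag1 and Dtna, 0.820 for Utrn and Dtna and 0.796 for Dag1 and Sgcb, but 0.031 for Dag1 and Sgcd and -0.044 for Sgcd and Dtna. The sarcoglycans Sgca and Sgcb had an r of 0.752, and Sgca and Sgcd of 0.349. Among 10285 genes with a mean of at least 5 CPM, those most like each of the 8 over the same libraries were Txlnb for Dmd (r = 0.919), Dst for Utrn (0.978), Pbxip1 for Dag1 (0.958), Pdk2 for Sgca (0.966), Serinc1 for Sgcb (0.953), Dennd2c for Sgcd (0.862), Klhl24 for Sspn (0.914) and Sema6a for Dtna (0.952). By Spearman's rho, Txlnb and Sema6a were not among the 3 genes most like Dmd and Dtna, and of the 3 genes named by Pearson's r only 1 stayed for Dmd, Dag1 and Dtna, 2 for Utrn, Sgca, Sgcb and Sgcd, and 3 for Sspn. Sgcd stood out by having few close companions, since the next 2 were Bpgm (0.745) and Tbccd1 (0.705), where the next 2 of the other 7 genes had an r between 0.904 and 0.952. The 3 genes most like Utrn, which were Dst, Akap9 and Macf1, had longest transcripts of 23279, 13123 and 23495 bases. Those most like Dmd, which were Txlnb, Hephl1 and Fsd1l, had 4422, 5261 and 7467 bases. For the remaining genes of the complex these lengths ran from 1724 (Tprgl) to 9846 bases (Hivep2).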

How the data were processed

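One table held counts per gene (Ensembl IDs) that the authors deposited unnormalised. Per the submitters' processing notes, the tools were FastQC 0.11.9, STAR 2.7.9, featureCounts 2.0.3 and DESeq2, and the builds GRCm38 and GRCh38, whose roles are not stated. Per the labels, libraries came from a TruSeq Stranded mRNA kit and were read at 51 bases. Of all values above 0, 64.41% were even, so both mates of a pair may have been counted, and halved counts were tried. All 29980 IDs matched GENCODE M21 (GRCm38), which gave symbols and exon lengths, and 1 column that matched no sample was not used.

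Samples were grouped by line and day from their titles, 10 groups in all. Counts were fitted in edgeR 4.0.16 (R 4.3.3) with TMM, filterByExpr, 1 mean per group and robust quasi-likelihood over 39 libraries (29 residual degrees of freedom), with Benjamini-Hochberg adjustment over 13780 genes per contrast. CPM uses TMM-scaled library sizes, the SE comes from the spread of log2 CPM (prior count 2) within groups, and RPKM divides by the union of exons. The fit was tested on simulated data. Same-numbered libraries of KO and WT deviated together on days 0, 1, 2 and 4 (every r between 0.126 and 0.571), taken from the replicate numbers in the titles, but not on day 6 (lowest r -0.0172). Those of day 0 did so with KO days 1 and 2 and WT day 1, but not with the other later days. The pairing is thus a hint from the data that met a preset minimum of 0.1, and blocked values stand beside the results of those days where they change a call. Alternatives were DESeq2 1.42.0 and its size factors, no filter, halved counts, a replicate block over all libraries or within the day, only the groups compared, each library left out in turn, 2 libraries left out together, another gene length and Spearman's rho. Exact permutation tests were two-sided on mean log2 CPM.

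The 8 genes, the related lists and the marker lists were chosen with earlier results of these data known. The genes named were the 8, up to 4 called genes with the smallest adjusted p at day 6 per related list, and the 3 genes most like each of the 8 by Pearson's r.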

Additional observations from a re-analysis of the deposited data

Results flagged for a closer look

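The change since day 0 of the KO minus WT difference was called for Sgca, at -1.353 (day 4) and -1.691 (day 6) on the log2 scale, and for Sgcd, at -2.515 (day 4) and -2.762 (day 6), by edgeR's test of genotype by day.

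In the 72 groups of 4 libraries checked, a library lay far from the rest of its group 4 times, and chance alone gives this in about 1 of 20 groups. Dmd stood at 0.09709 CPM in KO day 1 replicate 1, from 2 counts, with none in the other libraries, and at 0.6381 CPM in WT day 1 replicate 5, from 14 counts, with none in the others. Sgcb stood at 123.7 CPM in KO day 0 replicate 1, where the others had 66.8 to 71.3 CPM, and at 231.3 CPM in KO day 6 replicate 3, where the lowest of the others had 194 CPM.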

How the results depend on the processing

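Of 2299 log2 differences of the 8 genes recomputed under the alternatives, 2128 kept their direction and their side of the threshold, 56 uncalled ones changed sign, 60 lost a call, 55 gained one and 0 reversed a call. The calls of Sgca and Sgcd at days 0 and 1, Sgcd at days 4 and 6 and Dtna at day 0 between KO and WT held in every alternative run. Genes of the complex called between KO and WT at day 4 numbered 2 with DESeq2's size factors (27.5% of all genes called), 4 with the replicate block (31.7%), 6 with it within the day (43.2%), 2 with halved counts (29.5%), 3 without the 2 outlying libraries (31.8%), 3 with DESeq2 (28.6%), and 1 to 2 with each library left out (22.4 to 26.5%). At day 6 only 1 was called with no filter (17.5%), and 1 with each library left out (23.5 to 26.1%). Under the first 6 alternatives given for day 4, they numbered 2 (28.7%), 3 (33.5%), 4 (40.9%), 2 (29.9%), 3 (33.2%) and 2 (29.5%) at day 6, and 4 in a fit of the 2 groups alone (39.1%). At day 2 there was 1 in that fit (15.4%), and 1 to 2 with libraries left out (10.7 to 16.4%). At day 6 same-numbered libraries missed the preset minimum r of 0.1 (r from -0.0172 to 0.185), which does not show that they were unpaired. The block within that day gave Dmd -2.36 (adjusted p = 3.71e-05), Utrn -1.01 (0.000243) and Sspn 0.51 (0.0357). The block over all libraries gave Dmd -2.48 (0.0101) and Utrn -1.04 (0.027). Since day 0, complex genes called in KO at day 1 numbered 2 with no filter (4.0% of all genes called), 0 in the fit of the groups alone (0.139%) and 1 to 5 with libraries left out (2.37 to 21.7%). In WT at day 1 they numbered 0 (2.05%), 0 (2.51%) and 0 to 1 (0.836 to 5.2%) under the same settings, and 2 without the 2 outlying libraries (5.87%). Genotype by day at day 4 called 1 in the fit of the groups alone (6.85%) and 1 to 2 with libraries left out (5.59 to 8.31%).

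Counts over all genes moved more. With the 2 outlying libraries out they were 3657 (KO against WT, day 0), 3372 (KO day 1 against day 0), and 1, 176, 1608 and 2368 for genotype by day at days 1, 2, 4 and 6. In fits of the groups alone they were 1421 (KO against WT, day 0), 1372 (day 1), 17 (KO day 1 against day 0), 314 (WT day 1) and 40 (genotype by day, day 2). The block gave 3734 (KO against WT, day 2, within the day), 1864 (KO day 1), 1070 (WT day 1) and 175 (genotype by day, day 2). DESeq2 gave 997 (WT day 1) and 1, 190 and 1620 (genotype by day at days 1, 2 and jointly). With each library left out in turn they ran from 1393 to 2879 (KO against WT, day 0), 1508 to 2257 (day 2), 326 to 2985 (KO day 1), 2123 to 4023 (KO day 2), 115 to 715 (WT day 1), and 0 to 1 and 21 to 93 (genotype by day at days 1 and 2). Fits of fewer libraries hold fewer degrees of freedom. Whether this or any other cause moved the counts was not tested. Depth limits Dmd, which had 1093 counts in all 39 libraries.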
